A study of Mus musculus with 16 samples.

Results

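The genes described here are 10 genes of the major histocompatibility complex class I pathway and the immunoproteasome, namely B2m, H2-K1, H2-D1, Tap1, Tap2, Tapbp, Psmb8, Psmb9, Psmb10 and Nlrc5. They were taken by gene symbol from a table of RPKM values (read density normalised to transcript length and library depth) that names 29060 genes. All 10 were found, on 71 transcript entries, and all 10 passed the filter on low values (at least 0.5 RPKM in at least 4 libraries), as did 15222 genes in all.

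The study sequenced RNA of primary mouse preadipocytes grown from the stromal-vascular fraction of 2 fat depots, the inguinal white and the interscapular brown depot, each as control and with Fgf8b, a secreted fibroblast growth factor isoform that signals through fibroblast growth factor receptors. The 16 libraries form 4 groups of 4, which are white control (libraries 1, 3, 5 and 7), white Fgf8b (2, 4, 6 and 8), brown control (9, 11, 13 and 15) and brown Fgf8b (10, 12, 14 and 16). All cells came from C57BL/6N mice that carry a UCP1 reporter, so the reporter was shared by every group, and the sources used here do not give the dose and time of Fgf8b or the age and sex of the mice. The design text speaks of 3 cultures while each group holds 4 libraries, so the p-values measure the spread between these libraries, part of which may be technical. White libraries carry the lower numbers and brown libraries the higher ones, so anything that ran with library number cannot be told apart from depot, and no label pairs a control with a treated library.

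Depth ran from about 13700000 to 20100000 reads per library, as recovered from the steps between low RPKM values. The labels name the cells preadipocytes in one place and adipocytes in another. Of the 6 adipocyte markers, Lep and Cfd were listed at 0 in all 16 libraries and Adipoq, Plin1 and Cidec did not exceed 0.118 RPKM, while Fabp4 lay between 5.10 and 19.4 RPKM. The 10 preadipocyte markers summed to between 1583 and 3864 RPKM. Among 13 leukocyte markers Cd3e was at 0 in all 16 libraries, Tyrobp in 15, and Ptprc (the pan-leukocyte marker) and Itgam in 13 each. Cd68 (0.505 to 1.97 RPKM), Csf1r (0.167 to 1.23) and Coro1a (0.295 to 1.01) were above 0 in all 16. Lyz2 reached 3.62 RPKM and was at 0 in 1 library, and the remaining markers were at 0 in 6 to 12 libraries. Libraries were ordered within their group by RPKM summed over the entries of each gene, which can differ from the order of the levels printed below. Library 8 (white Fgf8b) was the lowest of its group for 10 of the 10 genes and library 7 (white control) for 8. Library 15 (brown control) was the lowest for 7, and libraries 12 and 16 (brown Fgf8b) for 5 and 4. Libraries 8 and 15 had the widest gaps to the rest of their groups, so counts that rest on them are given without both, and also without libraries 7, 8, 15 and 16.

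Class I molecules show peptides made inside a cell to CD8 T cells. Proteasomes cut cytosolic proteins into peptides, the Tap1 and Tap2 transporter carries them into the endoplasmic reticulum, tapasin (Tapbp) holds the transporter to newly made class I molecules, and a heavy chain such as H2-K1 or H2-D1 leaves for the cell surface with its peptide and with beta-2-microglobulin (B2m). Interferons raise these genes, among them Psmb8, Psmb9 and Psmb10, which replace the catalytic subunits of the constitutive proteasome, and Nlrc5 is the transactivator of class I promoters. Preadipocytes, like most nucleated cells, carry class I molecules.

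With Fgf8b the class I genes were lower in both depots. In white preadipocytes 10 of the 10 fell and none rose (limma, adjusted p under 0.05, where 29.5% of the 15222 genes tested were called lower, 36.3% higher and 65.7% in either direction). In brown preadipocytes 8 of the 10 fell and none rose, against 34.7% of all genes called lower, 36.7% higher and 71.4% in either direction, and Psmb10 and Nlrc5 were not called. Control and Fgf8b libraries did not overlap for 10 of the 10 in white and 8 of the 10 in brown preadipocytes, all lower with Fgf8b, as was the case for 28.6% and 29.7% of all genes tested. The 10 genes and the gene lists used below were chosen with earlier results of these data known, so setting them against all genes is not a separate test. The median log2 change of the 10 was -0.87 in white and -0.60 in brown preadipocytes, where the median of all genes tested was 0.037 and 0.0087. Without libraries 8 and 15, and without libraries 7, 8, 15 and 16, the counts were again 10 and 8. In bulk RNA, fewer cells that express a gene and less RNA per cell cannot be told apart. Levels are RPKM of 1 representative RefSeq transcript per gene, and changes as differences of log2(RPKM summed over the entries of a gene + 0.5) with their standard error (SE), from a limma fit over all genes and all 16 libraries.

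**Figure D1:**
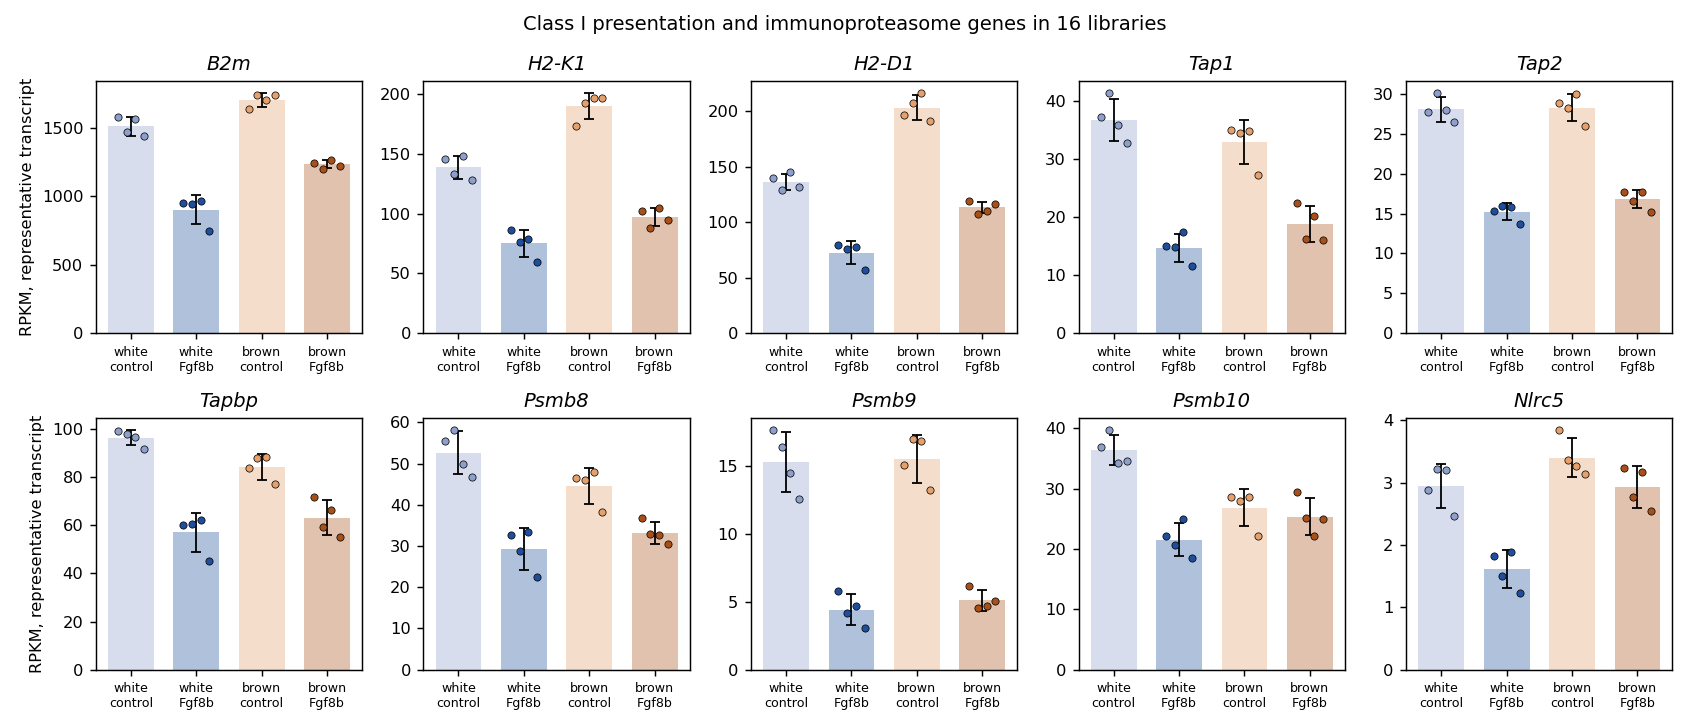
RPKM of the representative transcript of each of the 10 genes (vertical axes, linear and starting at 0, 1 panel per gene) in the 4 groups. Points are libraries, bars are means and error bars are SD (n = 4). In white preadipocytes the Fgf8b points lie below the control points in every panel, and in brown preadipocytes they do so except for Psmb10 and Nlrc5, where the points overlap.

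The surface molecule itself is described first. Stretches before the start sites of its 3 genes are shown because they hold, at the same distance from each other, the letters of 2 elements known from class I promoters. They are RefSeq reference sequence (GRCm38.p6), at chr2:122147542-122147644 on the plus strand for B2m, chr17:34000353-34000464 on the minus strand for H2-K1 and chr17:35262917-35263051 on the plus strand for H2-D1. Capitals mark matches to the 5 motifs searched.
B2m: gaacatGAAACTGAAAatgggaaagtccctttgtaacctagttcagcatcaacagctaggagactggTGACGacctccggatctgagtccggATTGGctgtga
H2-K1: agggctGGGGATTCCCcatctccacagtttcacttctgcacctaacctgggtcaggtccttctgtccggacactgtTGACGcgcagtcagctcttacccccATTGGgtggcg
H2-D1: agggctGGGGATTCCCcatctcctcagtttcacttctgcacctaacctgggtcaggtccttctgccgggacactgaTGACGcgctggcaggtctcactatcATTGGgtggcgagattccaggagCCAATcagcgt
Windows of 250 bases before to 50 bases after the start were searched on both strands for 5 motifs, and 8 of the 10 genes had windows, 9 in all. TGACG, the core of a cyclic AMP response element, was in 6 of these 9 windows and in 20.81% of all 32851 windows of the table. CCAAT, read as ATTGG on the other strand, was in 7 of 9 and in 37.41% of all. In B2m, in both windows of H2-K1 and in H2-D1, ATTGG began 25 bases after the first base of TGACG on the same strand, as it did in 31 of the 32851 windows (0.094%). That distance was read from the windows of these genes, which are among the 31, so its rarity is not a separate test. The kappa B sequence in capitals at the left of the H2-K1 and H2-D1 stretches was in both H2-K1 windows and that of H2-D1 (0.11% of all windows). The core of an interferon-stimulated response element was searched in a single form (GAAA, 2 bases of any kind, GAAA). These letters were in the B2m window alone among the 8 genes with windows (3.44% of all). TTCNNNGAA, the letters of a gamma-activated site, was in that of Psmb8 alone (8.3%). Other forms of these elements were not searched for, so a window without a match may still hold one. The H2-K1 windows overlap and hold the same matches, and so do those of Tap1 and Psmb9 for TGACG and CCAAT, so the windows counted are not separate sites. The H2-K1 and H2-D1 stretches are also much alike in sequence, so their matches are not independent of each other. Matches of different motifs did not overlap, and a match is a description of letters, not of binding.

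B2m encodes the light chain shared by all class I molecules and had the highest level of the 10 genes. In the white depot it stood at 1575, 1465, 1564 and 1436 RPKM in the control libraries and at 953, 945, 964 and 748 RPKM with Fgf8b. In the brown depot the control libraries held 1635, 1740.4, 1699.9 and 1739.8 RPKM and the Fgf8b libraries 1245, 1201, 1266 and 1223 RPKM. The 4 groups did not overlap: brown control was highest, then white control, brown Fgf8b and white Fgf8b, with library 8 far below the other 3 of its group. The log2 change was -0.75 (SE 0.059, limma adjusted p = 1.73e-09) in white and -0.46 (SE 0.059, limma adjusted p = 1.23e-06) in brown preadipocytes, a fall to a level 1.69-fold and 1.38-fold lower.

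H2-K1 and H2-D1 encode the classical heavy chains that bind the peptide. H2-K1 was at 146, 133, 148 and 128 RPKM in white control and 86.4, 76.3, 78.7 and 59.3 RPKM in white Fgf8b libraries. Its brown values were 174, 192, 197 and 197 RPKM without and 102, 88.1, 105 and 94.6 RPKM with Fgf8b. Here too the 4 groups did not overlap, and they stood in the same order as for B2m. H2-K1 changed by -0.90 (SE 0.086, limma adjusted p = 3.13e-08) in white and by -0.96 (SE 0.086, limma adjusted p = 9.39e-09) in brown preadipocytes on the log2 scale. H2-D1 read 139, 129, 145 and 132 RPKM in white control and 78.9, 75.6, 77.6 and 57.0 RPKM in white Fgf8b libraries, then 197, 207, 216 and 191 RPKM in brown control and 119, 108, 110.3 and 117 RPKM in brown Fgf8b libraries. Its groups did not overlap either, and brown control libraries were the highest. For H2-D1 the log2 change was -0.91 (SE 0.076, limma adjusted p = 3.53e-09) in white and -0.84 (SE 0.076, limma adjusted p = 8.92e-09) in brown preadipocytes. The 2 genes are near copies: 22.8% of the 31-base words of the H2-K1 transcripts and 26.9% of those of H2-D1 also occur in another gene's transcripts (11.1% and 13.8% in each other's), so reads may have been split between them.

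Most of the other class I heavy chains fell as well. Of 18 listed, 14 were tested, of which 9 were lower and none higher in white preadipocytes (median log2 change -0.68), and 12 lower and none higher in brown (median -0.69). Among all genes tested, 29.5% were called lower in white and 34.7% in brown. Some of those called in brown lay low, with mean RPKM of the representative transcript of 0.10 for H2-Q10, 0.64 for H2-K2 and 0.66 for H2-Q6. H2-T23, the mouse Qa-1 molecule that presents leader peptides to natural killer receptors, went from 55.3 ± 4.28 to 18.7 ± 2.54 RPKM (mean ± SD, n = 4) in white and from 35.4 ± 1.98 to 17.9 ± 1.45 RPKM in brown preadipocytes, log2 changes of -1.58 (SE 0.085, limma adjusted p = 6.39e-12) and -0.97 (SE 0.085, limma adjusted p = 5.94e-09). H2-Q4, a Qa class I gene, changed by -1.22 (SE 0.088, limma adjusted p = 4.72e-10) and -0.97 (SE 0.088, limma adjusted p = 1.07e-08). Among them were genes with other tasks: Fcgrt, the neonatal Fc receptor that recycles antibodies, changed by -1.16 (SE 0.043, limma adjusted p = 2.73e-14) and -1.53 (SE 0.043, limma adjusted p = 3.24e-16), and Hfe, the haemochromatosis protein of iron sensing, by -1.11 (SE 0.079, limma adjusted p = 4.29e-10) and -1.39 (SE 0.079, limma adjusted p = 1.16e-11). These genes also share sequence, with 53.0% of the 31-base words of H2-Q4 and 25.8% of those of H2-T23 found in transcripts of other genes. For H2-Q6 and H2-Q7 the shares were 51.8% and 39.2%.

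The transporter and its partners came next in the pathway. Tap1 and Psmb9 are divergent neighbours whose start sites lie 225 bases apart, so the whole stretch between them is shown (GRCm38.p6, chr17:34187331-34187555, plus strand, Tap1 to the right, capitals marking CCAAT and TGACG).
Tap1 and Psmb9: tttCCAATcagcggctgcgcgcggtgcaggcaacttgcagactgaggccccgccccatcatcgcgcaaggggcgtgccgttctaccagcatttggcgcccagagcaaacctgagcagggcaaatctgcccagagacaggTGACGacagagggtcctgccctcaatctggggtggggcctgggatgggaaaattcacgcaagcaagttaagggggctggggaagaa
Tap1, an ATP-driven transporter subunit, was at 37.2, 41.3, 35.8 and 32.7 RPKM in white control and 14.9, 14.7, 17.4 and 11.6 RPKM in white Fgf8b libraries. In brown preadipocytes it was at 34.9, 34.5, 34.8 and 27.2 RPKM in controls and 22.3, 16.2, 20.2 and 16.1 RPKM with Fgf8b. Control and Fgf8b libraries did not overlap in either depot, although brown control library 15 lay well under the other 3 of its group. The log2 change of Tap1 was -1.34 (SE 0.12, limma adjusted p = 1.14e-08) in white, the second largest of the 10, and -0.81 (SE 0.12, limma adjusted p = 7.2e-06) in brown preadipocytes. Psmb9, on the other side of the same stretch, had the largest change in both depots.

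Tap2, the partner subunit, stood at 27.7, 30.1, 28.04 and 26.4 RPKM in white control and at 15.3, 15.996, 15.9 and 13.7 RPKM in white Fgf8b libraries. Brown libraries held 28.9, 28.3, 30.0 and 25.9 RPKM without and 17.7, 16.6, 17.7 and 15.2 RPKM with Fgf8b. The controls of both depots overlapped each other and lay wholly above both Fgf8b groups. Tap2 changed by -0.87 (SE 0.060, limma adjusted p = 2.67e-10) in white and -0.75 (SE 0.060, limma adjusted p = 1.87e-09) in brown preadipocytes on the log2 scale.

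Tapbp, which encodes tapasin, was at 99.3, 98.0, 96.5 and 91.8 RPKM in white control and 60.0, 60.6, 62.3 and 45.1 RPKM in white Fgf8b libraries. Its brown values were 83.8, 88.0, 88.2 and 76.9 RPKM in controls and 71.7, 59.4, 66.3 and 55.1 RPKM with Fgf8b. Every Fgf8b library was below every control, and library 8 was again the lowest. The log2 change was -0.77 (SE 0.095, limma adjusted p = 7.9e-07) in white and -0.42 (SE 0.095, limma adjusted p = 0.000684) in brown preadipocytes. Of the 31-base words of Tapbp transcripts, 26.9% also occur in other genes, most of them in Gm19412 (22.1%).

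The rest of the loading and trimming machinery did not move in 1 direction. Of its 11 genes, all tested, 6 rose and 3 fell in white preadipocytes and 4 rose and 3 fell in brown. The shares of all genes tested were 36.3% called higher and 29.5% lower in white, and 36.7% and 34.7% in brown. Tapbpl, the tapasin-related editor of class I peptides, changed by -0.84 (SE 0.087, limma adjusted p = 8.17e-08) in white and by -0.62 (SE 0.087, limma adjusted p = 3.16e-06) in brown preadipocytes. Calr, the chaperone calreticulin, rose from 387 ± 16.3 to 619 ± 15.4 RPKM (mean ± SD, n = 4) in white and from 584 ± 4.22 to 737 ± 9.46 RPKM in brown preadipocytes. Erap1, the aminopeptidase that trims peptides in the endoplasmic reticulum, fell in white (-0.64, SE 0.072, limma adjusted p = 3.06e-07) and was not called in brown preadipocytes (-0.12, SE 0.072, limma adjusted p = 0.155), and the difference between the depots was itself called (0.52, SE 0.10, limma adjusted p = 0.000676). Tpp2, a cytosolic peptidase, rose in both depots, by 0.33 (SE 0.054, limma adjusted p = 2.25e-05) in white and by 0.37 (SE 0.054, limma adjusted p = 5.87e-06) in brown preadipocytes.

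All 3 immunoproteasome subunits fell in white preadipocytes and Psmb8 and Psmb9 in brown, while the 3 constitutive counterparts rose in both. Psmb8, the immunoproteasome form of the chymotrypsin-like subunit, was at 55.5, 58.2, 49.98 and 46.7 RPKM in white control and 32.6, 28.8, 33.5 and 22.4 RPKM in white Fgf8b libraries. Brown libraries held 46.4, 46.0, 48.0 and 38.2 RPKM in controls and 36.7, 32.8, 32.7 and 30.4 RPKM with Fgf8b. The gap between brown groups was narrow, from 36.7 RPKM in the highest Fgf8b library to 38.2 RPKM in control library 15. Psmb8 changed by -0.85 (SE 0.11, limma adjusted p = 9.55e-07) in white and -0.42 (SE 0.11, limma adjusted p = 0.00162) in brown preadipocytes on the log2 scale.

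Psmb9, which takes the place of the caspase-like subunit, stood at 17.7, 16.4, 14.5 and 12.6 RPKM in white control and 5.84, 4.16, 4.68 and 3.07 RPKM in white Fgf8b libraries. In brown preadipocytes it stood at 15.1, 17.0, 16.9 and 13.2 RPKM in controls and 6.20, 4.53, 4.67 and 5.07 RPKM with Fgf8b. Controls of the depots overlapped, as did the Fgf8b groups, and no Fgf8b library reached any control. Its log2 change, -1.76 (SE 0.14, limma adjusted p = 2.33e-09) in white and -1.56 (SE 0.14, limma adjusted p = 9.7e-09) in brown, was the largest of the 10 genes in each depot, a level 3.38-fold and 2.96-fold lower. Psmb9 also rested on the fewest reads, 40 to 262 per library, against 10363 to 24879 for B2m.

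Psmb10, which replaces the trypsin-like subunit, read 36.9, 39.7, 34.3 and 34.6 RPKM in white control and 22.1, 20.6, 24.9 and 18.4 RPKM in white Fgf8b libraries. Brown control libraries read 28.5, 27.9, 28.6 and 22.2 RPKM and brown Fgf8b libraries 29.4, 25.1, 22.1 and 24.9 RPKM. The white control libraries stood above all others, and the brown groups covered the same range. Psmb10 changed by -0.76 (SE 0.098, limma adjusted p = 1.54e-06) in white preadipocytes, and its brown difference was -0.080 (SE 0.098, limma adjusted p = 0.476).

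Each subunit was set against the constitutive subunit whose place it takes, as a ratio of RPKM within a library, over 12 comparisons tested by a two-sided exact permutation test (4 against 4 libraries, smallest p 0.0286). Psmb5, Psmb6 and Psmb7, the constitutive catalytic subunits, all rose, by 0.42, 0.60 and 0.54 log2 in white and by 0.55, 0.44 and 0.45 log2 in brown preadipocytes (limma adjusted p of at most 8.42e-07). The Psmb8/Psmb5 ratio was 1.54, 1.54, 1.29 and 1.35 in white control and 0.640, 0.606, 0.692 and 0.458 in white Fgf8b libraries, and 1.30, 1.19, 1.27 and 1.12 and 0.693, 0.629, 0.636 and 0.529 in the brown ones. Every control library held more Psmb8 than Psmb5 and every Fgf8b library less. The Psmb9/Psmb6 ratio was 0.209, 0.189, 0.170 and 0.144 against 0.0439, 0.0324, 0.0351 and 0.0240 in white and 0.160, 0.188, 0.174 and 0.167 against 0.0511, 0.0371, 0.0397 and 0.0398 in brown libraries. Psmb9 thus stayed under Psmb6 in all 16 libraries. The Psmb10/Psmb7 ratio was 0.509, 0.541, 0.461 and 0.459 against 0.210, 0.187, 0.229 and 0.173 in white and 0.351, 0.328, 0.333 and 0.272 against 0.257, 0.213, 0.199 and 0.219 in brown libraries.

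With Fgf8b these ratios were 2.41-fold, 5.33-fold and 2.47-fold lower in white and 1.97-fold, 4.14-fold and 1.44-fold lower in brown preadipocytes (geometric means, in the order Psmb8/Psmb5, Psmb9/Psmb6, Psmb10/Psmb7, each exact permutation p = 0.0286, adjusted 0.049 over the 12). Leaving out library 9, 12, 13, 14 or 16 ended the calls (adjusted exact permutation p of 0.0571 to 0.098), while on leaving out any 1 library the ratios kept log2 changes with Fgf8b of -2.55 to -0.48. The 1.44-fold lower Psmb10/Psmb7 ratio in brown preadipocytes came with no called change of Psmb10 and a rise of Psmb7. Between the controls of the depots the Psmb10/Psmb7 ratio was 1.54-fold lower in brown (exact permutation p = 0.0286, adjusted 0.049). The other 5 depot comparisons of ratios were not called, with adjusted p from the exact permutation tests of 0.0857 to 0.8. Of the 31-base words of Psmb5, 71.7% occur in other genes' transcripts, most in Gm3375, and the part of such shared reads in the ratio was not tested.

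**Figure D2:**
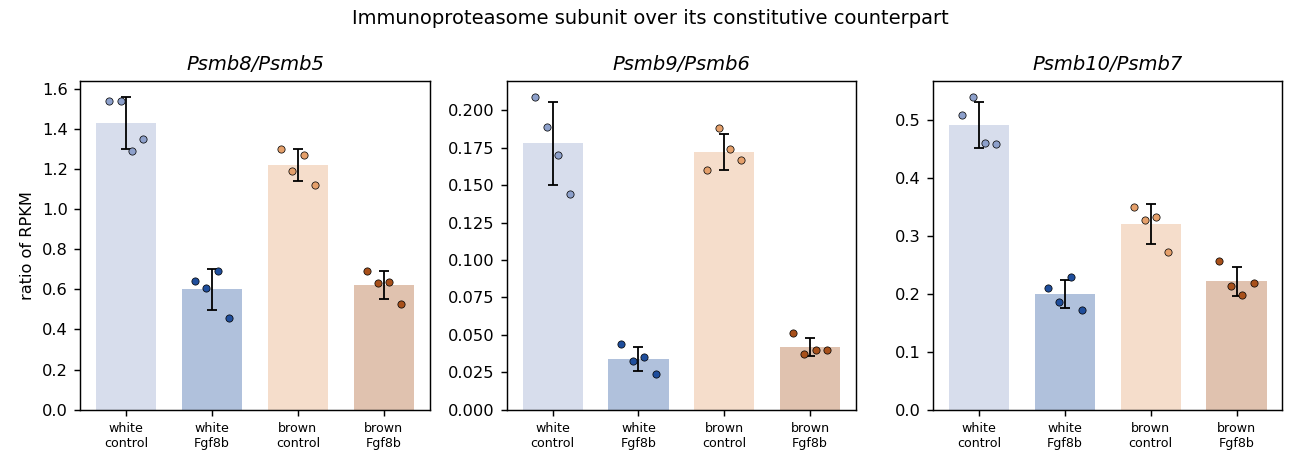
Ratio of the RPKM of each immunoproteasome subunit to that of its constitutive counterpart (vertical axes, linear and starting at 0) in the 4 groups. Points are libraries, bars means and error bars SD (n = 4). In all 3 panels every Fgf8b library lies below every control library of its depot.

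The remaining proteasome genes followed the constitutive subunits. Of the 11 other genes of the 20S core, 10 rose in white and 11 in brown preadipocytes and none fell, with medians of 0.38 and 0.36 log2. Among all genes tested, 36.3% were called higher in white and 36.7% in brown. Psma7, a ring subunit, rose by 0.49 and 0.53 log2, and Psma3, another, by 0.57 and 0.76. Of 9 activators and assembly factors, 6 rose and 2 fell in each depot. The 2 that fell were Psme1 and Psme2, the subunits of the interferon-inducible PA28 activator, with log2 changes of -0.27 and -0.37 in white and -0.32 and -0.33 in brown preadipocytes (limma adjusted p of at most 0.00431), Psme1 being named after its values were seen. Pomp, the maturation factor of new proteasomes, rose by 0.44 and 0.59 log2.

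**Figure D3:**
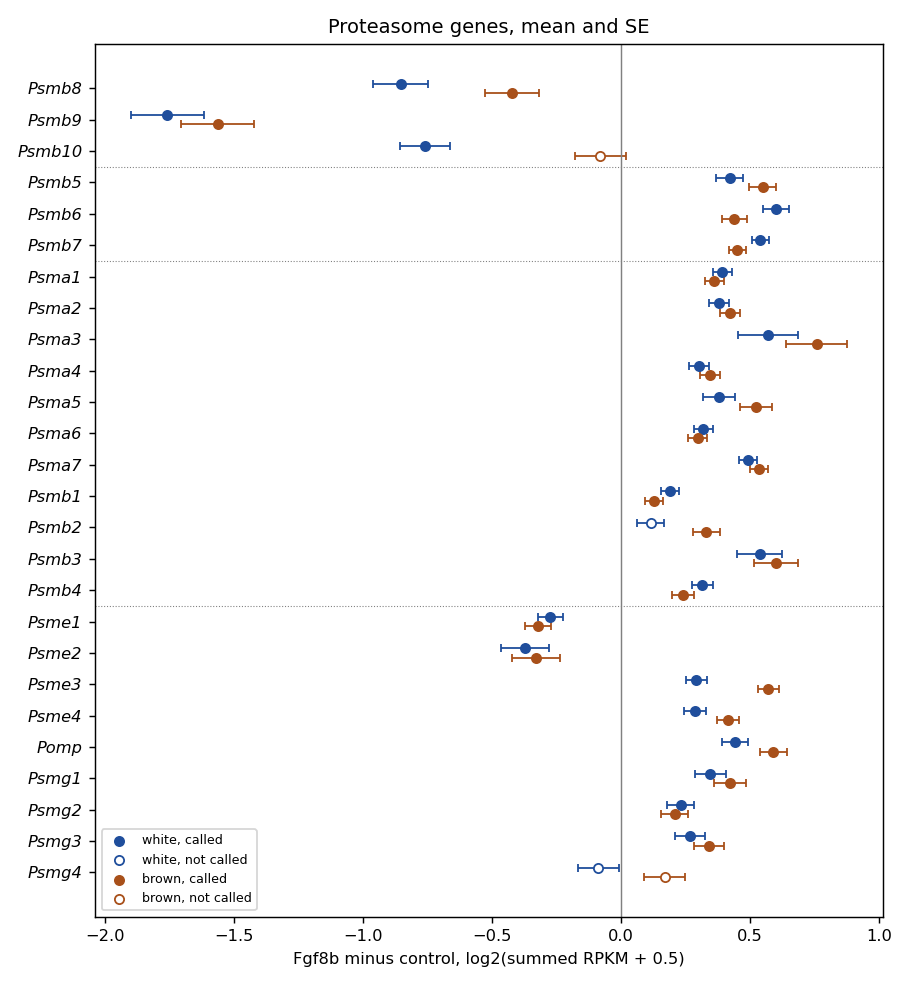
Change with Fgf8b in log2(summed RPKM + 0.5) of the proteasome genes (horizontal axis), in white and brown preadipocytes. Points are fitted means, bars are SE and filled points passed an adjusted p of 0.05 in limma. From top to bottom the blocks are immunoproteasome subunits, their constitutive counterparts, the other 20S core subunits, and activators and assembly factors. Psmb8, Psmb9, Psmb10, Psme1 and Psme2 lie to the left of 0 and nearly all others to the right.

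Nlrc5, the class I transactivator, had the lowest level of the 10 genes. White libraries held 2.88, 3.22, 3.20 and 2.47 RPKM in control and 1.82, 1.49, 1.89 and 1.23 RPKM with Fgf8b. Brown libraries held 3.85, 3.36, 3.26 and 3.13 RPKM in control and 3.24, 2.76, 3.17 and 2.54 RPKM with Fgf8b. White Fgf8b libraries lay under all others, and the other 3 groups overlapped. Nlrc5 changed by -0.88 (SE 0.14, limma adjusted p = 1.38e-05) in white preadipocytes, and the brown difference was -0.24 (SE 0.14, limma adjusted p = 0.117). It rested on 138 to 442 reads per library.

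Other regulators of class I genes and the interferon pathway moved in mixed directions. Of 18 tested transcription factors, 3 rose and 8 fell in white preadipocytes, and 6 rose and 5 fell in brown. Among all genes tested, 36.3% were called higher and 29.5% lower in white, and 36.7% and 34.7% in brown, so the brown counts were near those shares. Stat2, a factor of the type I interferon signal, changed by -0.68 (SE 0.083, limma adjusted p = 7.44e-07) and -0.32 (SE 0.083, limma adjusted p = 0.00218), and Irf7, an interferon regulatory factor, by -0.69 (SE 0.12, limma adjusted p = 7.6e-05) in white, with 0.054 (SE 0.12, limma adjusted p = 0.71) in brown, not called. Rfx5, a part of the complex on class I promoters, changed by -0.31 and -0.44 log2. Nfkb1, a subunit of the kappa B binding factor, rose by 0.14 and 0.37 log2. Irf1, named after its values were seen as the textbook activator of Tap1 and Psmb9, was not called in either depot, with differences of -0.080 (SE 0.047, limma adjusted p = 0.146) in white and 0.10 (SE 0.047, limma adjusted p = 0.0586) in brown preadipocytes.

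Of 9 tested interferon receptor and signalling genes, 4 rose and 3 fell in white and 3 rose and 3 fell in brown preadipocytes, and Ifnb1, Ifng and Ifna4 did not pass the filter on low values. These counts were near the shares of all genes tested, 36.3% called higher and 29.5% lower in white and 36.7% and 34.7% in brown. Socs3, a feedback inhibitor of cytokine receptors, rose by 1.21 in white and 0.86 log2 in brown preadipocytes. Ifngr2, a chain of the interferon gamma receptor, rose by 0.40 and 0.66 log2, and Jak1, the kinase on both kinds of interferon receptor, changed by -0.39 and -0.35 log2. Interferon-induced genes outside the pathway fell without exception in white preadipocytes (12 of 12, median log2 change -1.23), whereas in brown preadipocytes 2 of 12 rose and 3 fell (median -0.083). Mx1, an antiviral GTPase, changed by -2.86 (SE 0.20, limma adjusted p = 4.29e-10) in white, with -0.29 (SE 0.20, limma adjusted p = 0.207) in brown, and Usp18, which turns interferon signalling down, by -0.30 (SE 0.10, limma adjusted p = 0.0175) in white and 0.63 (SE 0.10, limma adjusted p = 2.54e-05) in brown preadipocytes.

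The change was smaller in brown than in white preadipocytes for part of the 10 genes. The difference of the 2 changes (brown minus white, a positive value meaning a smaller fall in brown) was called for 6 of the 10, all positive, where 17.1% of all genes tested were called positive, 17.8% negative and 34.9% in either direction. It was 0.68 (SE 0.14, limma adjusted p = 0.000881) for Psmb10, 0.63 (SE 0.19, limma adjusted p = 0.0151) for Nlrc5 and 0.29 (SE 0.084, limma adjusted p = 0.0109) for B2m. For Tap1 it was 0.53 (SE 0.17, limma adjusted p = 0.0215), for Psmb8 0.43 (SE 0.15, limma adjusted p = 0.0324) and for Tapbp 0.36 (SE 0.13, limma adjusted p = 0.0466). Without libraries 8 and 15 the first 3 were still called (0.53, 0.47 and 0.21, limma adjusted p = 0.00193, 0.0315 and 0.00116), and the other 3 were not (Tap1 0.33, Psmb8 0.23 and Tapbp 0.19, limma adjusted p = 0.0733, 0.0847 and 0.116). The 3 latter calls were also lost without library 15 alone, which left 3 of the 10. Of 28 alternative fits, the call of Tapbp was lost in 15, that of Psmb8 in 9 and that of Tap1 in 3. Without libraries 7, 8, 15 and 16 all 6 were called (Tap1 0.45, Psmb8 0.33 and Tapbp 0.28, limma adjusted p = 0.0159, 0.012 and 0.00507). No difference was called for Psmb9 (0.19, SE 0.20, limma adjusted p = 0.489), Tap2 (0.12, SE 0.085, limma adjusted p = 0.292), H2-D1 (0.073, SE 0.11, limma adjusted p = 0.644) or H2-K1 (-0.064, SE 0.12, limma adjusted p = 0.731), which does not show that these genes respond alike. The interferon-induced genes moved in the same direction as the 6: 12 of 12 were called positive (median 1.07 log2), with Mx1 at 2.57 (SE 0.29, limma adjusted p = 1.84e-06).

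**Figure D4:**
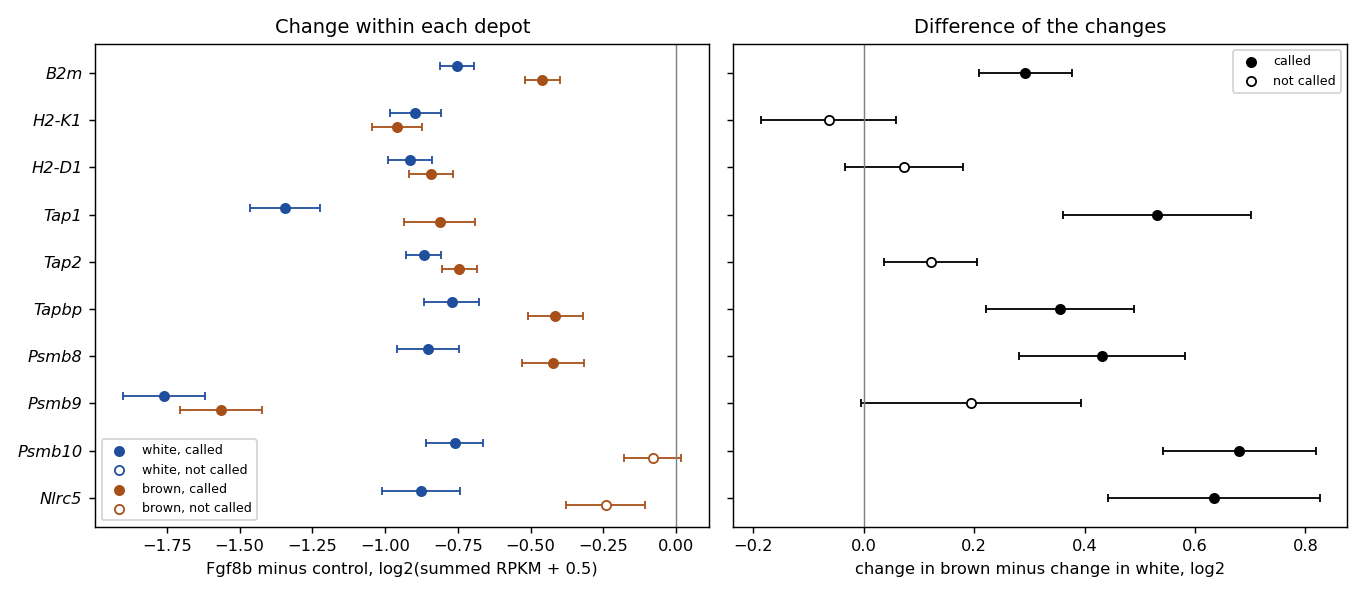
Left, change with Fgf8b of the 10 genes in white and brown preadipocytes, in log2(summed RPKM + 0.5). Right, the difference of those changes, brown minus white, in log2. Points are fitted means, bars are SE, and filled points passed an adjusted p of 0.05 in limma over 15222 genes. All left-hand values are below 0, from -1.76 (Psmb9 in white) to -0.080 (Psmb10 in brown).

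The depots were also compared with each other within each treatment. In control libraries 3 of the 10 genes were higher in brown than in white preadipocytes and 1 lower, where 18.1% of all genes tested were called higher, 15.9% lower and 33.9% in either direction. The ranges of the control groups did not overlap for 3 genes that were higher and 2 that were lower in brown preadipocytes, against 17.3% and 15.1% of all genes. H2-D1 was higher by 0.59 (SE 0.076, limma adjusted p = 6.28e-06), H2-K1 by 0.46 (SE 0.086, limma adjusted p = 0.000402) and B2m by 0.17 (SE 0.059, limma adjusted p = 0.0367) on the log2 scale. The B2m call was lost in 8 of the alternative fits, with adjusted p in limma of up to 0.104. Psmb10 was the gene that was lower in brown, with a difference of -0.45 (SE 0.098, limma adjusted p = 0.00156). For Tapbp the controls of the depots did not overlap (76.9 to 88.2 RPKM in brown, 91.8 to 99.3 RPKM in white), and its difference of -0.20 (SE 0.095, limma adjusted p = 0.114) was not called. Tap1, Tap2, Psmb8, Psmb9 and Nlrc5 overlapped between the controls and none was called, with log2 differences between -0.24 (Psmb8) and 0.21 (Nlrc5).

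Under Fgf8b, 5 of the 10 were higher in brown preadipocytes and none lower, against 26.9% of all genes called higher, 24.7% lower and 51.6% in either direction. Nlrc5 had the largest difference, 0.84 (SE 0.14, limma adjusted p = 4.29e-05), followed by H2-D1 (0.66, SE 0.076, limma adjusted p = 8.14e-07), B2m (0.46, SE 0.059, limma adjusted p = 3.45e-06), H2-K1 (0.39, SE 0.086, limma adjusted p = 0.00089) and Tap1 (0.36, SE 0.12, limma adjusted p = 0.0181). For the first 4 of these the groups did not overlap, as for 26.8% of all genes in that direction. Tap1 overlapped between the groups, at 16.1 to 22.3 RPKM in brown and 11.6 to 17.4 RPKM in white Fgf8b libraries, and its call was lost without library 8, 10 or 14 (limma adjusted p = 0.08, 0.0751 and 0.0567). Tap2, Tapbp, Psmb8, Psmb9 and Psmb10 were not called. Of 29 alternative fits, 6 called Psmb10 and 4 called Tap2 higher in brown, with the lowest adjusted p in limma at 0.0158 and 0.0174, and the count of genes called ran from 4 to 7 when single libraries were left out. Comparisons of the depots share their libraries with those of Fgf8b, so they are not independent counts.

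Some markers of other cells were called with Fgf8b too, as were 65.7% of all genes tested in white and 71.4% in brown preadipocytes. The 13 leukocyte markers measured summed to 2.96 to 4.09 RPKM in white control, 2.25 to 2.97 in white Fgf8b, 4.36 to 6.29 in brown control and 2.32 to 3.07 in brown Fgf8b libraries. Of the 5 that passed the filter, 1 rose and 2 fell in each depot. Lyz2, the lysozyme of macrophages, fell from 1.22 ± 0.164 to 0.0919 ± 0.0523 RPKM (mean ± SD, n = 4) in white and from 2.96 ± 0.819 to 0.171 ± 0.140 RPKM in brown preadipocytes, and Cd68, another macrophage marker, rose by 0.67 and 0.53 log2. The 8 class II presentation genes summed to 7.30 to 8.25 RPKM in white control, 7.14 to 8.77 in white Fgf8b, 6.98 to 7.95 in brown control and 3.83 to 5.10 in brown Fgf8b libraries, against more than 128 RPKM for each classical class I heavy chain in every control library. Of the 6 class II genes tested, 1 rose and 3 fell in white and 1 rose and 4 fell in brown preadipocytes.

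The 8 endothelial markers summed to 16.4 to 18.6 RPKM in white control, 11.2 to 12.4 in white Fgf8b, 12.1 to 13.7 in brown control and 7.08 to 8.11 in brown Fgf8b libraries. Tek, an angiopoietin receptor, fell from 9.29 ± 0.413 to 0.608 ± 0.00965 RPKM in white and from 6.58 ± 0.487 to 0.380 ± 0.0912 RPKM in brown preadipocytes (mean ± SD, n = 4). Cdh5, which defines endothelial junctions, rose by 0.66 and 0.43 log2. Fabp4, a fatty acid carrier and the one adipocyte marker tested, fell from 10.3 ± 0.599 to 5.82 ± 0.547 RPKM in white and from 18.1 ± 1.22 to 12.1 ± 1.43 RPKM in brown preadipocytes (mean ± SD, n = 4), log2 changes of -0.80 (SE 0.086, limma adjusted p = 1.43e-07) and -0.58 (SE 0.086, limma adjusted p = 7.5e-06). The preadipocyte markers moved both ways, with 6 of 10 higher and 4 lower in white and 2 higher and 6 lower in brown preadipocytes. The shares of all genes tested were 36.3% and 29.5% in white and 36.7% and 34.7% in brown. Col1a1, a fibrillar collagen chain, changed by -2.11 and -2.52 log2, and Lum, a matrix proteoglycan, changed by 2.37 in white and -0.55 in brown preadipocytes. The part of these markers in the class I changes was not tested.

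Across the 16 libraries the 10 genes followed a common profile. The Pearson correlation of each gene with the mean of their standardised log2 values ran from 0.801 for Psmb10 and 0.86 for Nlrc5 to 0.965 for Psmb9 and 0.984 for Tap1, each gene being part of that mean and the libraries sharing the treatment. The 5 other genes most like the mean profile were Ifi27l2a (0.979), H2-Q4 (0.979), Lgals3bp (0.974), BC023105 (0.973) and AW011738 (0.973). Ifi27l2a, an interferon-induced gene, went from 230.2 ± 22.9 to 43.1 ± 14.4 RPKM (mean ± SD, n = 4) in white and from 225 ± 31.7 to 64.4 ± 2.73 RPKM in brown preadipocytes. Lgals3bp, a secreted galectin-binding glycoprotein, went from 404 ± 12.1 to 229 ± 38.5 and from 373 ± 52.6 to 277 ± 23.6 RPKM.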

How the data were processed

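RNA was isolated with Trisure followed by column purification, per the labels' protocols, and TruSeq v2 libraries were sequenced. CASAVA and bcl2fastq appear, without versions, in the submitters' processing notes. The sources used here do not give the aligner, annotation, genome build or use of strand, so reads of a gene and of an antisense partner cannot be told apart. The authors deposited RPKM values (read density normalised to transcript length and library depth) for 168326 transcript entries in 16 libraries. Planned tests for counts were not used, since the table holds no counts.

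Entries without a gene symbol (13.8%) and 808 with repeated accessions were left out, and the rest summed per symbol. None of the 808 carried the symbol of any of the 10 genes, and the entries without a symbol were not matched to genes. Entries of a gene overlap, so a sum counts reads repeatedly. limma 3.58.1 in R 4.3.3 (one mean per group, mean-variance trend, robust moderation, Benjamini-Hochberg adjustment over 15222 genes, threshold 0.05) was fitted on log2(summed RPKM + 0.5). A run on simulated data used independent noise for every library, so it cannot show how the fit handles libraries of a shared culture. Ratios used RPKM of representative transcripts and exact permutation tests. Low values were whole reads within 0.1 read for 95.6 to 96.0% of values up to 50 reads, which gave the depth.

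The members and the 14 gene lists were chosen with earlier results of these data known. Named genes were the 10, per other list up to 3 called genes with the largest change per depot and at least 1 RPKM on average, Psmb5, Psmb6 and Psmb7, and the 5 genes of most similar profile. Not every gene that this rule allows is reported here. Alternatives were other pseudocounts, filters, scalings, gene values, moderation and library weights, fits of only the 2 groups compared and leaving out each library.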

Additional observations from a re-analysis of the deposited data

Results flagged for a closer look

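In 5 of the 52 sets of 4 libraries checked (10 genes and the 3 constitutive subunits in 4 groups), 1 library lay further from the rest than Dixon's 95% critical value allows, judged by its gap to the nearest other library as a share of the range of its group. Chance alone flags about 1 in 20 such sets. Library 8 (white Fgf8b) was the low one for B2m, with a gap of 0.914 of the range, for Tapbp (0.868) and for H2-D1 (0.846). Library 15 (brown control) was the low one for Tap1 (0.947) and for Psmb10 (0.888). By summed RPKM, library 8 was also the lowest of its group in 12 of 12 interferon-induced genes outside the pathway and in 10 of 14 other class I heavy chains. Library 15 was so in 9 of 12 and 12 of 14. Neighbouring numbers were low too: library 7 (white control) was the lowest of its group in 9 of 12 and 7 of 14, and library 16 (brown Fgf8b) in 9 of 12 and 1 of 14. No label ties neighbouring numbers to each other.

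The change with Fgf8b differed between the depots, by a test of the difference itself in limma, for 6 of the 10 genes. The change in brown minus that in white preadipocytes was 0.293 log2 for B2m, 0.531 for Tap1, 0.356 for Tapbp, 0.431 for Psmb8, 0.68 for Psmb10 and 0.634 for Nlrc5. Those of Tap1, Tapbp and Psmb8 were no longer called without library 15, and were called without libraries 7, 8, 15 and 16 together. The Tapbp call was lost in 15 of 28 alternative fits.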

How the results depend on the processing

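With Fgf8b, 10 of the 10 genes fell in white and 8 or 9 in brown preadipocytes under every alternative run, and each single change kept its direction. Nlrc5 in brown was called with upper-quartile scaling (-0.33, limma adjusted p = 0.0367) and without library 8. The depot differences of the responses of B2m, Psmb10 and Nlrc5 kept their call throughout. Of 28 alternative fits, that of Tapbp lost it in 15, that of Psmb8 in 9 and that of Tap1 in 3. Among these were no filter on low values for Tapbp and Psmb8 (limma adjusted p = 0.0897 and 0.0649) and library weights for Tap1 (0.0519). The count of such differences ranged from 3 to 6 when single libraries were left out, with 3 without library 15, and was 3 without libraries 8 and 15 together and 6 without libraries 7, 8, 15 and 16, both chosen after seeing the data. Leaving out 8 and 15 turned the sign of uncalled differences: the responses of H2-D1 (-0.055, and -0.056 without all 4) and Psmb9 (-0.017), and the Psmb8/Psmb5 ratio between depots under Fgf8b (-0.060). Between control depots the genes called lower in brown numbered 3 rather than 1 in the fit of only those 2 groups and without libraries 7, 8, 15 and 16, and 1 to 3 when single libraries were left out (3 without library 8).

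Leaving out 1 library also turned the sign of other small differences, none of them called: between control depots Tap2 ranged from -0.017 to 0.053, Psmb9 from -0.072 to 0.094 and the Psmb9/Psmb6 ratio from -0.13 to 0.048, the response difference of H2-K1 from -0.17 to 0.0080 and of H2-D1 from -0.037 to 0.12, and the Psmb8/Psmb5 ratio under Fgf8b from -0.060 to 0.14. Leaving out 1 of the brown libraries 9, 12, 13, 14 or 16 raised the adjusted p of the 7 called ratios to between 0.0571 and 0.098, since the adjustment links them. Depth limits Psmb9 and Nlrc5 most, with 40 and 138 reads in their lowest libraries. Without libraries 7, 8, 15 and 16, the exact tests of ratios compare 3 with 3 and cannot pass the threshold. No paired analysis was possible because the groups compared share no replicate numbers. A block on neighbouring numbers was not fitted, since no label ties them.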
